A study of Mus musculus with 15 samples.

Results

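The mesenchymal transition factors and markers described here are 9 genes: the zinc finger repressors Snai1 and Snai2, the basic helix-loop-helix factors Twist1 and Twist2, the zinc finger homeobox repressors Zeb1 and Zeb2, the homeobox factor Prrx1, the intermediate filament protein vimentin (Vim) and N-cadherin (Cdh2). They were chosen by name, as every probe that the platform annotation gives 1 of these symbols, which found 22 of the 45281 probes and 9 of the 19057 gene symbols on the array. They were measured in RNA of pancreatic ductal adenocarcinoma (PDAC) tumours of mice positive for an αSMA-tk transgene, a viral thymidine kinase that makes dividing cells using the promoter of Acta2 sensitive to ganciclovir (GCV). All 15 arrays come from transgene-positive mice of mixed C57BL/6 and Balb/c background and form 5 groups of 3. Early ablation tumours had GCV while lesions were at the stage of pancreatic intraepithelial neoplasia (PanIN), a precursor of PDAC, and their early controls had no GCV. Late ablation with anti-CTLA4 combined GCV at the PDAC stage with treatment against the T cell checkpoint receptor CTLA4, late ablation had the same GCV without it, and late controls had no GCV. The labels give neither the alleles that drive the tumours nor the age of the mice, and do not state whether the 3 arrays of a group are 3 animals. The p-values below therefore take in no more than the variation from array to array, which may be technical in part.

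In epithelial-to-mesenchymal transition, epithelial cells lose junctions and gain motility. The Snail, Twist and Zeb factors bind short DNA sites called E-boxes. Snail and Zeb proteins bind the form CAGGTG and repress Cdh1, the gene of E-cadherin. Prrx1 is a factor of embryonic mesenchyme, vimentin is the main intermediate filament of fibroblasts, leukocytes and endothelium, and N-cadherin joins mesenchymal and neural cells. Fibroblasts of a tumour express most of these genes themselves, so their level in whole tissue can follow the amount of stroma, for which Col1a2 (a chain of type I collagen) stands here, or the loss of epithelial adhesion, for which Cdh1 stands. In bulk RNA, fewer cells of a type and less RNA per cell cannot be told apart.

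The windows of 250 bases before the start of Snai1, Prrx1 and Vim are shown because these 3 genes passed the test against the fibroblast list mean described below. They come from RefSeq on GRCm38.p6, in the direction of transcription, with the E-box letters CAGGTG or their complement CACCTG in capitals. Snai1 lies on the plus strand and its window is chr2:167537945-167538194. Prrx1 is on the minus strand with window chr1:163313651-163313900. Vim is on the plus strand with window chr2:13574061-13574310.
Snai1: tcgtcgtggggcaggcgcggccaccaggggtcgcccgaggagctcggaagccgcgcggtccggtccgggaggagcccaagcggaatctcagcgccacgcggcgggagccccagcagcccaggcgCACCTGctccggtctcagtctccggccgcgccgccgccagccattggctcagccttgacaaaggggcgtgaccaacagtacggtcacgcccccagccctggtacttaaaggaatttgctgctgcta
Prrx1: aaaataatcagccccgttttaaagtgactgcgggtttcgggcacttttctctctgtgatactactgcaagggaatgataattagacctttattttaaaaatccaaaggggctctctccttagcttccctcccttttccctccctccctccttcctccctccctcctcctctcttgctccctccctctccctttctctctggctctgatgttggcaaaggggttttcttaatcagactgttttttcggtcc
Vim: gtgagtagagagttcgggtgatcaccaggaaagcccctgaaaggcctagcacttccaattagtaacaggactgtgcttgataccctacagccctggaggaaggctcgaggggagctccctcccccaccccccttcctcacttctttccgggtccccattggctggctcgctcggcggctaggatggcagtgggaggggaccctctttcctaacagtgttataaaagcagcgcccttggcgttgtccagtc
The letters, searched on both strands, occur once in the Snai1 window, 126 bases before the start, and not in those of Prrx1 and Vim. RefSeq windows were found for 6 of the 9 genes, and Snai1 was the 1 of them with these letters. Of all 32851 windows of this length, 17.2% hold them.

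Of the 22 probes, 10 were detected on at least 3 arrays (detection p-value under 0.05, from the negative control probes) and 5 on none. The brightest probe of a gene is used, on the scale of log2 background-corrected and quantile-normalized signal, and it must be detected on at least 3 arrays to be tested. Zeb1, Zeb2, Vim and Prrx1 were detected on all 15 arrays, Twist1 on 14, Snai1 on 13, Snai2 on 4, Cdh2 on 3 and Twist2 on 2. This left 7 genes tested over the 12 arrays of the first table (without Twist2 and Cdh2) and 8 over all 15 (without Twist2). Prrx1 has 6 probes, of which 3 were detected on at least 10 arrays, and the levels of these 3 correlated at r = 0.902 to 0.961 over the 15 arrays, as a description. For each other gene tested, 1 probe was detected on at least 3 arrays.

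Between 38.5% and 43.5% of probes were detected on each array, and rank correlations over the 105 pairs of arrays were 0.889 to 0.973. Late ablation array 1 and late control array 1 were each other's best match at 0.972, although they carry different treatments. They were among the 3 highest arrays in the fibroblast and matrix list, with means of 0.85 and 1.30 log2 above the mean of 15 arrays, and in acinar markers, with 1.36 and 2.12. Early ablation array 1 stood apart by acinar markers at -3.66 and by macrophage and leukocyte markers at 0.86. The tissue label was borne by epithelial genes, of which 16 of 19 with a probe were detected on every array. H2-Ea, a class II gene that the C57BL/6 haplotype does not express, was detected on 2 of the 3 early control arrays and on no other array, which bears on the mixed strain background of the arrays. The part of strain in the results was not tested. Acta2, whose promoter drives the transgene, averaged 12.52 ± 1.37 log2 in early ablation and 11.77 ± 0.56 in early control, and 10.88 ± 1.07 in late ablation with anti-CTLA4, 11.77 ± 1.07 in late ablation and 11.81 ± 1.31 in late control (SD, n = 3 each). The Acta2 ranges of each ablated group and its control overlapped. The anti-CTLA4 arrays are a table of their own, so the treatment and the table cannot be told apart.

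Over the 15 arrays the highest level stood 9.56-fold above the lowest for Vim, 7.55-fold for Prrx1, 4.61-fold for Zeb1 and 2.61-fold for Zeb2, which were detected on every array. Snai1, Twist1 and Snai2 were below the detection limit on some arrays, so no fold over the 15 arrays is given for them. The SD between arrays of a group was 0.92 log2 for both Snai1 and Prrx1, 0.88 for Vim and 0.60 for Zeb1, against a median of 0.34 over 15098 features. Levels of different genes are on different probes and are not set against each other.

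**Figure D1:**
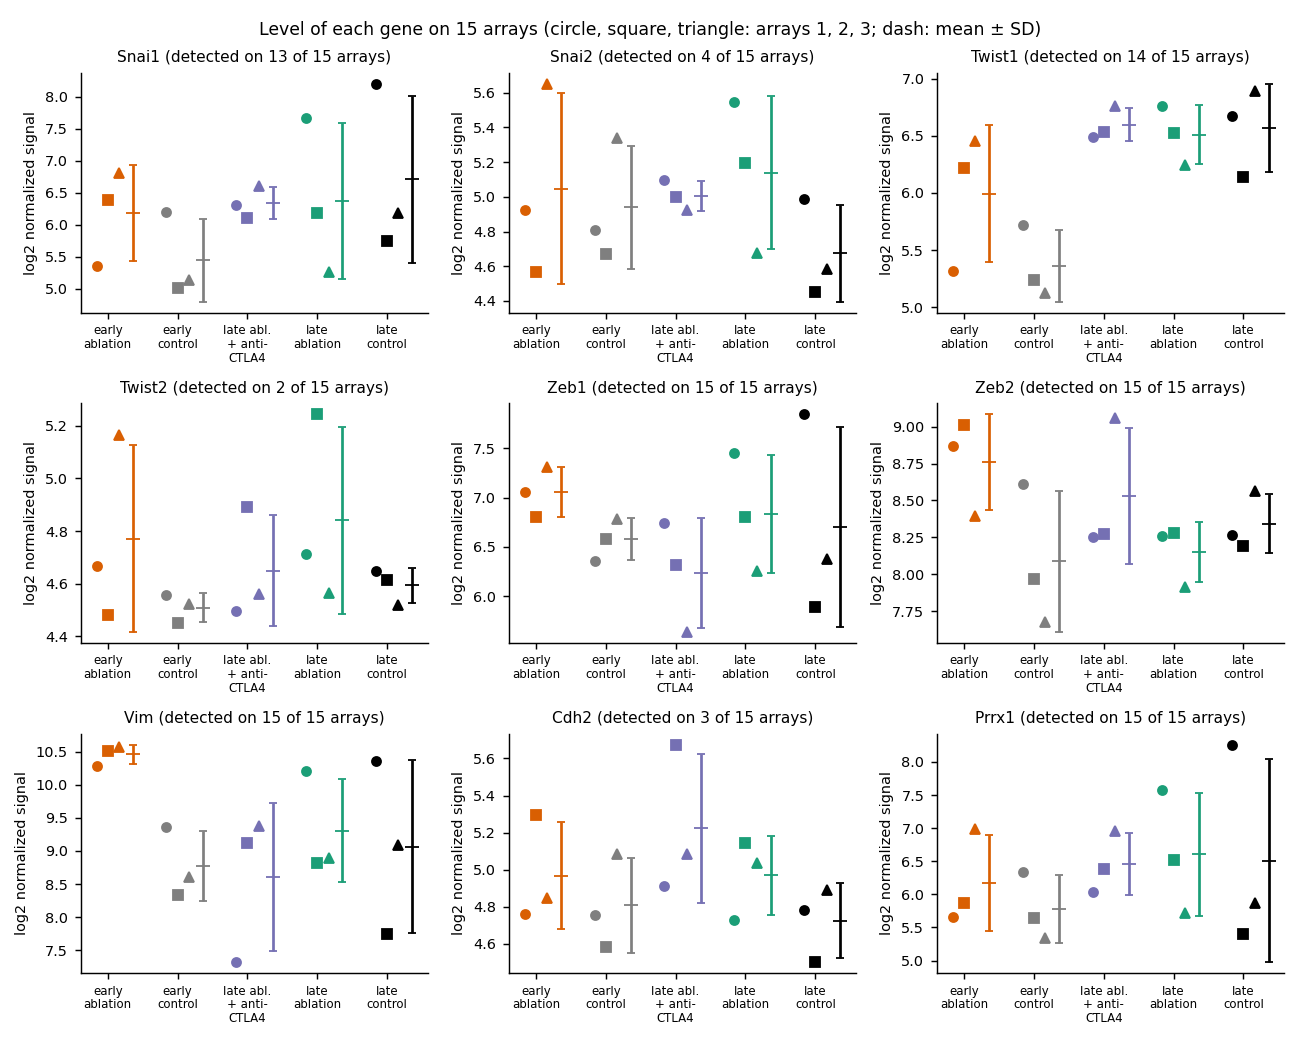
Normalized log2 signal of the brightest probe of each of the 9 genes on the y axis, by group on the x axis, with circle, square and triangle for arrays 1, 2 and 3 and a dash with bar for the mean ± SD of 3. The early ablation arrays lie above all early control arrays for Vim, and array 1 of late ablation and of late control lies above the rest for Snai1 and Prrx1. The early control arrays lie below the late control arrays for Twist1.

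Snai1, a repressor of Cdh1 that acts at the onset of the transition, stood at 5.36, 6.39 and 6.81 in early ablation, against 6.19, 5.01 and 5.14 in early control. It stood at 6.32, 6.10 and 6.61 in late ablation with anti-CTLA4, at 7.67, 6.18 and 5.27 in late ablation, and at 8.20, 5.75 and 6.19 in late control. The highest values of all 15 were array 1 of late control and array 1 of late ablation, and every pair of groups that was compared overlapped. Only 1 of the 3 early control arrays had Snai1 detected.

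Snai2, or Slug, a related repressor with roles in neural crest and stem cells, was near background. Its levels were 4.92, 4.57 and 5.65 in early ablation, against 4.81, 4.67 and 5.34 in early control. They were 5.10, 5.0 and 4.92 in late ablation with anti-CTLA4, 5.55, 5.19 and 4.67 in late ablation, and 4.99, 4.45 and 4.58 in late control. Detection was met on 1 early ablation, 1 early control and 2 late ablation arrays, and on none of late ablation with anti-CTLA4 or late control.

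Twist1, a factor of mesoderm and mesenchyme, stood at 5.31, 6.22 and 6.45 in early ablation, against 5.72, 5.24 and 5.13 in early control. It stood at 6.49, 6.54 and 6.76 in late ablation with anti-CTLA4, at 6.76, 6.53 and 6.25 in late ablation, and at 6.67, 6.14 and 6.89 in late control. All 9 late arrays lay above the 3 early control arrays, a pattern whose share over all features was not computed. Its paralog Twist2 lay between 4.45 and 5.24 on all arrays and was detected on 1 early ablation and 1 late ablation array only.

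Zeb1, which represses Cdh1 and is held down by microRNAs of the miR-200 family, stood at 7.06, 6.80 and 7.31 in early ablation, against 6.36, 6.58 and 6.79 in early control. It stood at 6.74, 6.32 and 5.64 in late ablation with anti-CTLA4, at 7.45, 6.80 and 6.25 in late ablation, and at 7.84, 5.89 and 6.37 in late control. The early groups were barely apart, and the highest arrays were again array 1 of late control and of late ablation. Zeb2, its paralog, also known in mast cells, macrophages and dendritic cells, stood at 8.87, 9.01 and 8.39 in early ablation, against 8.61, 7.97 and 7.68 in early control. It stood at 8.25, 8.27 and 9.06 in late ablation with anti-CTLA4, at 8.26, 8.28 and 7.91 in late ablation, and at 8.27, 8.19 and 8.57 in late control. The 2 late arrays that led for Zeb1 were near the middle of the range for Zeb2.

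Prrx1 stood at 5.65, 5.87 and 6.99 in early ablation, against 6.34, 5.65 and 5.35 in early control. It stood at 6.04, 6.38 and 6.96 in late ablation with anti-CTLA4, at 7.58, 6.52 and 5.72 in late ablation, and at 8.26, 5.40 and 5.87 in late control. As for Snai1, late control array 1 and late ablation array 1 were the highest of all.

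Vim stood at 10.29, 10.52 and 10.57 in early ablation, against 9.37, 8.34 and 8.61 in early control. It stood at 7.32, 9.12 and 9.37 in late ablation with anti-CTLA4, at 10.21, 8.81 and 8.90 in late ablation, and at 10.36, 7.75 and 9.10 in late control. The early ablation arrays were close together and above every early control array, while the late groups each spanned over 1 log2. Cdh2 lay between 4.50 and 5.68 and was detected on 1 array each of early ablation, late ablation with anti-CTLA4 and late ablation. The cadherin switch, the exchange of E-cadherin for N-cadherin that is described in the transition, could therefore not be measured with its probes.

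Of the 2 genes they are set against, Col1a2 stood at 7.92, 8.95 and 10.20 in early ablation, against 8.74, 7.07 and 7.99 in early control. It stood at 5.76, 5.91 and 6.46 in late ablation with anti-CTLA4, at 7.88, 8.84 and 6.52 in late ablation, and at 8.54, 6.60 and 9.17 in late control. The 3 anti-CTLA4 arrays held the lowest levels of all. Cdh1 stood at 11.26, 11.37 and 11.49 in early ablation, against 11.67, 11.70 and 11.62 in early control. It stood at 11.53, 11.43 and 11.30 in late ablation with anti-CTLA4, at 10.90, 11.94 and 12.02 in late ablation, and at 10.74, 11.92 and 11.85 in late control. Array 1 of late control and array 1 of late ablation were the lowest, and over the 15 arrays Cdh1 spanned 2.43-fold, against 21.6-fold for Col1a2.

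The first comparison was early ablation against early control, which asks what the members did when GCV was given at the PanIN stage. All 7 members tested averaged higher in early ablation, Snai2 not so with the authors' deposited values (-0.15) or beside the median shift of 0.25 that median scaling gave, and none passed the test (limma, Benjamini-Hochberg over all features). None of the 14633 features did (0%), while 1277 (8.73%) had an unadjusted p under 0.05, with 2 members, Vim and Zeb2, among them. Vim averaged 10.46 ± 0.15 in early ablation and 8.77 ± 0.53 in early control (SD, n = 3 each), a log2 difference of 1.69 (SE 0.57) or 3.23-fold, with an adjusted p of 0.52 by limma. Differences of 0.67 for Zeb2, 0.64 for Twist1, 0.74 for Snai1, 0.48 for Zeb1, 0.39 for Prrx1 and 0.11 for Snai2 had adjusted p-values of 0.53 to 0.94. The groups did not overlap for Vim and Zeb1, 2 of 7 on the brightest probes, both higher in early ablation. Of all features, 10.1% were higher without overlap. The less bright Prrx1 probes ILMN_3057018 and ILMN_2614463 were separate as well, each detected on 3 early ablation and 0 early control arrays. The former stood at 5.21, 5.31 and 6.18 in early ablation, against 4.90, 4.62 and 4.77 in early control. The latter stood at 5.23, 5.27 and 6.49, against 4.65, 4.56 and 4.87. Neither was tested by itself. The median difference of the 7 was 0.64, beside -0.01 over all features. Col1a2 differed by 1.09 (SE 0.78) and Cdh1 by -0.29 (SE 0.34), neither past the test, and the Cdh1 groups did not overlap.

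Markers of other cells had differences in the same comparison, none past the test. All 13 fibroblast and matrix genes measured averaged higher in early ablation, with a median difference of 0.93 and 0 past the test, among them decorin (Dcn) at 1.65 and lumican (Lum) at 2.01. Of 13 macrophage and leukocyte genes 12 averaged higher, with a median of 0.51, among them the macrophage receptor Mrc1 at 1.60, and so did all 9 smooth muscle and pericyte genes, with a median of 0.65. Of 17 inducers and signalling genes of the transition, 14 averaged higher and 0 passed. The smallest p-values there were those of the ligand Tgfb2 at 1.25 and the co-receptor Tgfbr3 at 1.91. Of 17 mesenchymal effectors 16 averaged higher, with a median of 0.49, among them the membrane protease Mmp14 at 0.93 and fibronectin (Fn1) at 1.13. Of 18 epithelial genes 16 averaged lower, with a median of -0.27, among them the small GTPase Rab25 at -0.52 and keratin 19 (Krt19) at -0.51. None of these named genes passed the test. The summed level of the fibroblast and matrix list was 14.123 to 14.797 log2 in early ablation arrays, against 12.997 to 13.732 in early control arrays, and Postn was the 1 of its 14 genes with a probe that was detected on no array. That of the macrophage and leukocyte list was 14.1 to 15.1 log2 in early ablation, against 13.8 to 14.3 in early control. The part of the other cell types in the members' values was not tested.

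The late comparison, late ablation against late control, asks the same once PDAC had formed. Here 4 of 7 members averaged higher and 3 lower in late ablation (Prrx1 at -0.038 without background correction), with a median difference of 0.10, beside -0.01 over all features, and none of the 7 or of all features (0%) passed limma's test. At an unadjusted p under 0.05 there were 307 features (2.1%) and 0 members. Vim averaged 9.30 ± 0.78 in late ablation and 9.07 ± 1.31 in late control (SD, n = 3 each), a log2 difference of 0.24 (SE 0.57). Snai1 differed by -0.34 (SE 0.71), Zeb2 by -0.19, Twist1 by -0.06, Prrx1 by 0.10 and Zeb1 by 0.13, each with an adjusted p of 1.0 by limma. Snai2, not detected on any late control array, averaged at least 1.08-fold higher in late ablation, with overlapping groups. The fit gave 0.46 (SE 0.32, unadjusted p = 0.17 by limma), not past the test. No member's groups were separate, where 4.4% of all features were. The same-numbered late arrays deviated together, weakly for number 3 (r = 0.135), so the differences were also taken by number. The labels do not state this pairing. For Vim they were -0.15, 1.06 and -0.20 log2 for numbers 1, 2 and 3, for Prrx1 -0.68, 1.12 and -0.15, and for Snai1 -0.53, 0.44 and -0.93. For these 3 genes number 2 ran against the others, as it did for Zeb1 and Zeb2. Twist1 had 0.09, 0.39 and -0.65. Snai2, near background, was the 1 of the 7 with the same sign in all 3, at 0.56, 0.74 and 0.09.

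Of the wider lists in late tumours, 5 of 17 inducers and signalling genes and 12 of 17 effectors averaged higher in late ablation and 0 of either passed. The receptor tyrosine kinase Met, at -0.74, and its ligand Hgf, at -0.46, had the smallest p-values among the inducers. Epithelial genes were divided 9 to 9, and 10 of 13 fibroblast genes averaged higher with a median of 0.09.

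Late control against early control sets the 2 groups without GCV side by side. Each is named for the ablated group it matches, and the age of the mice is not given. Twist1 had the smallest p among the members. It averaged 6.57 ± 0.39 in late control and 5.35 ± 0.32 in early control (SD, n = 3 each), a log2 difference of 1.21 (SE 0.31) or 2.32-fold, and the groups did not overlap. Twist1 was detected on 2 of the 3 early control arrays, so this fold takes in a signal below the detection limit. Its adjusted p was 0.29 by limma, and 0 of 14633 features (0%) passed, while 1461 (9.98%) had an unadjusted p under 0.05, Twist1 the 1 member among them. Arrays were also weighted by how closely they followed their group means in these same data. The difference of Twist1 was then 1.45 (adjusted p = 0.023, limma with array weights). It was the 1 member to pass there, where 214 of 14633 features passed (1.46%). Snai1 differed by 1.27 (SE 0.71) and Prrx1 by 0.73 (SE 0.69), and both had overlapping groups. Without late control array 1 the difference of Snai1 was 0.53, that of Prrx1 -0.14, that of Vim -0.35 in place of 0.30, and that of Zeb1 -0.45 in place of 0.13. Of the 7 members tested 1, Twist1, lay above early control on all 3 late control arrays, as did 8.86% of all features. Early control is shared with the first comparison and late control with the second, so these values are not independent.

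The late minus the early ablation effect asks whether the effect of ablation differed by stage. No member passed, nor did any of 14633 features (0%), and 680 (4.65%) had an unadjusted p under 0.05, Zeb2 the 1 member among them. The difference was -0.86 (SE 0.37, adjusted p = 0.98 by limma) for Zeb2 and -1.45 (SE 0.80, adjusted p = 0.98 by limma) for Vim. It was negative for 6 of 7 members, with Snai2 at 0.36 the exception, and the median was -0.69, beside -0.0007 over all features. A difference between the stages is therefore not shown for any member tested.

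Late ablation with anti-CTLA4 was set against late ablation without it in a fit over 15 arrays, with Cdh2 added. No member of 8 passed, and 1 of 15098 features did (0.00662%), while 1170 (7.75%) and 0 members had an unadjusted p under 0.05. Zeb1 differed by -0.60 (SE 0.44), Vim by -0.70 (SE 0.63), Zeb2 by 0.38 (SE 0.28) and Cdh2 by 0.25 (SE 0.24), and Twist1, Snai1 and Prrx1 by 0.08, -0.03 and -0.14. No adjusted p of a member was below 0.78 by limma, and no member's groups were separate, where 10.3% of all features were. Col1a2 averaged 6.04 ± 0.37 in late ablation with anti-CTLA4 and 7.75 ± 1.17 in late ablation (SD, n = 3 each), a difference of -1.70 with separate groups and an adjusted p of 0.60 by limma. Of 13 fibroblast and matrix genes 12 averaged lower with anti-CTLA4, with a median of -0.62, and 14 of 18 mesenchymal effectors did, with a median of -0.28. Of 11 acinar genes 10 averaged lower, with a median of -1.36. None passed the test, and the part of these cells in the members' values was not tested.

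**Figure D2:**
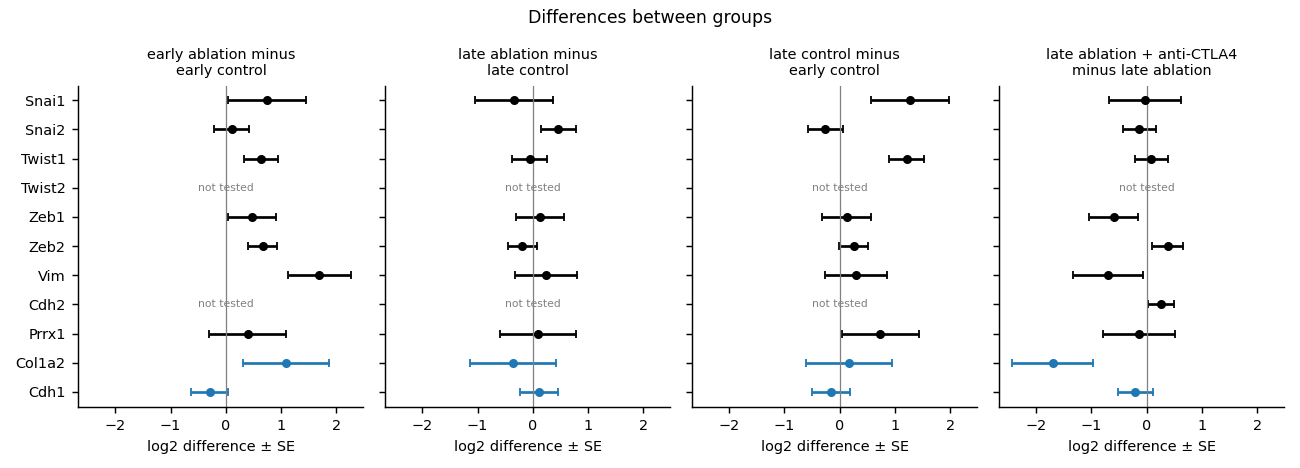
Log2 difference with its standard error on the x axis, for each gene down the y axis, in 4 comparisons, tested members in black and Col1a2 and Cdh1 in blue. The early comparison has all 7 members right of 0, led by Vim at 1.69, while the late comparison has them on both sides, and Twist1 at 1.21 stands out in late control against early control.

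Whether the members followed stromal content was asked first with Col1a2, over 15 arrays. No member passed (limma with the level of Col1a2 as covariate), where 33 of 15097 features did (0.219%). Vim had the steepest slope, 0.48 log2 per log2 of Col1a2 (SE 0.15, adjusted p = 0.20 by limma), with Pearson's r = 0.637 (permutation p = 0.011) and Spearman's rho = 0.507 (permutation p = 0.056). Without early ablation array 3 and late ablation with anti-CTLA4 array 1, the 2 arrays farthest from the median of Col1a2, r was 0.427, and it was 0.619 over the 12 arrays that share a table. Zeb1 followed with r = 0.514 (permutation p = 0.051) and rho = 0.514 (permutation p = 0.052). For Snai1, Prrx1, Snai2, Zeb2, Twist1 and Cdh2, r was between -0.15 and 0.30. Over the 12 arrays that share a table, r of these genes was 0.470, 0.415, 0.448, 0.492, 0.362 and 0.370 in that order. Within groups, where each group has its own mean, the slope of Twist1 was 0.30 (SE 0.08, adjusted p = 0.28 by limma), r = 0.825, against r = 0.025 over all arrays. Snai1 and Prrx1 had within-group slopes of 0.53 (SE 0.21, r = 0.593) and 0.50 (SE 0.21, r = 0.562). No member passed within groups, where 18 features did (0.119%).

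Col1a2 is 1 probe, and its anti-CTLA4 levels were the lowest of all. The mean of the other 12 fibroblast and matrix genes measured, which correlated with Col1a2 at r = 0.692, gave another picture. Against that mean, 3 of 8 members passed (limma), all rising with it, where 395 of 15098 features rose (2.62%). Vim rose by 1.10 log2 per log2 of the list mean (SE 0.15, adjusted p = 0.00028 by limma), with r = 0.887 (permutation p = 7e-05) and rho = 0.839 (permutation p = 0.00016). Prrx1 rose by 0.80 (adjusted p = 0.011 by limma), with r = 0.778, and Snai1 by 0.82 (adjusted p = 0.018 by limma), with r = 0.747. Zeb1 had r = 0.646 and an adjusted p of 0.082 by limma. Twist1, Snai2 and Zeb2 had r of 0.418, 0.491 and 0.383, and Cdh2 0.167.

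Of these 3 relations that of Vim held without the 2 late arrays that stand apart. Without late ablation array 1 and late control array 1, r was 0.868 for Vim, 0.673 for Prrx1 and 0.610 for Snai1, and Vim was the 1 of the 3 that still passed the test. Without late control array 1 alone Vim was again the 1 that passed. Calls fell over all features as well, from 568 of 15098 (3.76%) to 166 (1.1%) without both arrays. Without late control array 1 alone they numbered 231. Within groups r was 0.887 for Vim, 0.904 for Prrx1 and 0.869 for Snai1, and it was 0.884, 0.817 and 0.811 over the 12 arrays that share a table. Of the 18 mesenchymal effectors tested, 7 rose with the same mean and 0 fell, among them Sparc, a matricellular protein, at 1.06, the collagen crosslinker Lox at 1.34 and the protease Mmp2 at 0.95. Of the 18 epithelial genes 0 rose and 1 fell. Of 11 acinar markers 3 also rose with it and 0 fell. Against the acinar mean itself no member passed, where 51 of 15098 features did (0.338%). Prrx1 had the smallest p there, with a slope of 0.36 (adjusted p = 0.22 by limma) and r = 0.652, followed by Snai1 with 0.34 (adjusted p = 0.32 by limma) and r = 0.585.

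Whether the members followed epithelial loss was asked with Cdh1. Here 1106 of 15097 features passed (7.33%), 608 rising with Cdh1 (4.03%) and 498 falling (3.3%), and 2 of 8 members passed, both falling. Snai1 fell by 1.77 log2 per log2 of Cdh1 (SE 0.42, adjusted p = 0.021 by limma), with r = -0.732 (permutation p = 0.0022) and rho = -0.614 (permutation p = 0.017). Prrx1 fell by 1.67 (SE 0.39, adjusted p = 0.021 by limma), with r = -0.736 (permutation p = 0.0018) and rho = -0.504 (permutation p = 0.059). The slope was -0.99 for Zeb1 (adjusted p = 0.065 by limma), with r = -0.627, and -1.68 for Vim (adjusted p = 0.063 by limma), with r = -0.616 and rho = -0.675. Snai2, Zeb2, Twist1 and Cdh2 had r of -0.403, -0.297, -0.209 and 0.010.

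Both calls ended without the 2 lowest Cdh1 arrays, late control array 1 at 10.74 and late ablation array 1 at 10.90, or without either one alone. Without both, r was -0.311 for Snai1, -0.319 for Prrx1 and -0.217 for Zeb1, so these relations rested on those arrays, and no feature of all passed. For Vim r was -0.506 and rho -0.604 without both, with a slope of -1.97 (SE 0.89), while r of Zeb2 was -0.605. The 2 arrays carry the same number in groups taken as paired. With the array number as a replicate block over all groups no member and 1 feature passed, with slopes of -1.74 for Snai1 (adjusted p = 0.12 by limma) and -1.71 for Prrx1 (adjusted p = 0.10 by limma). The labels state no such block, and outside the late pair of groups deviations did not follow the number. With median scaling no member and 150 features passed. Over the 12 arrays of the first table r was -0.731 for Snai1, -0.729 for Prrx1, -0.873 for Zeb1 and -0.743 for Vim, and all 4 passed, where 1341 features did (9.16%). A second probe of Cdh1, detected on 8 of 15 arrays, had no relation to the first (r = 0.001). With the mean over detected probes taken for every gene, Cdh1 included, no member and no feature passed. That setting changed the levels of other genes too, so it does not test the Cdh1 measure alone. The mean of the other epithelial genes correlated with the first Cdh1 probe at r = 0.886, and against it Vim alone of the members passed (slope -4.56, adjusted p = 0.0084 by limma, r = -0.813), where 379 of 15098 features fell (2.51%).

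**Figure D3:**
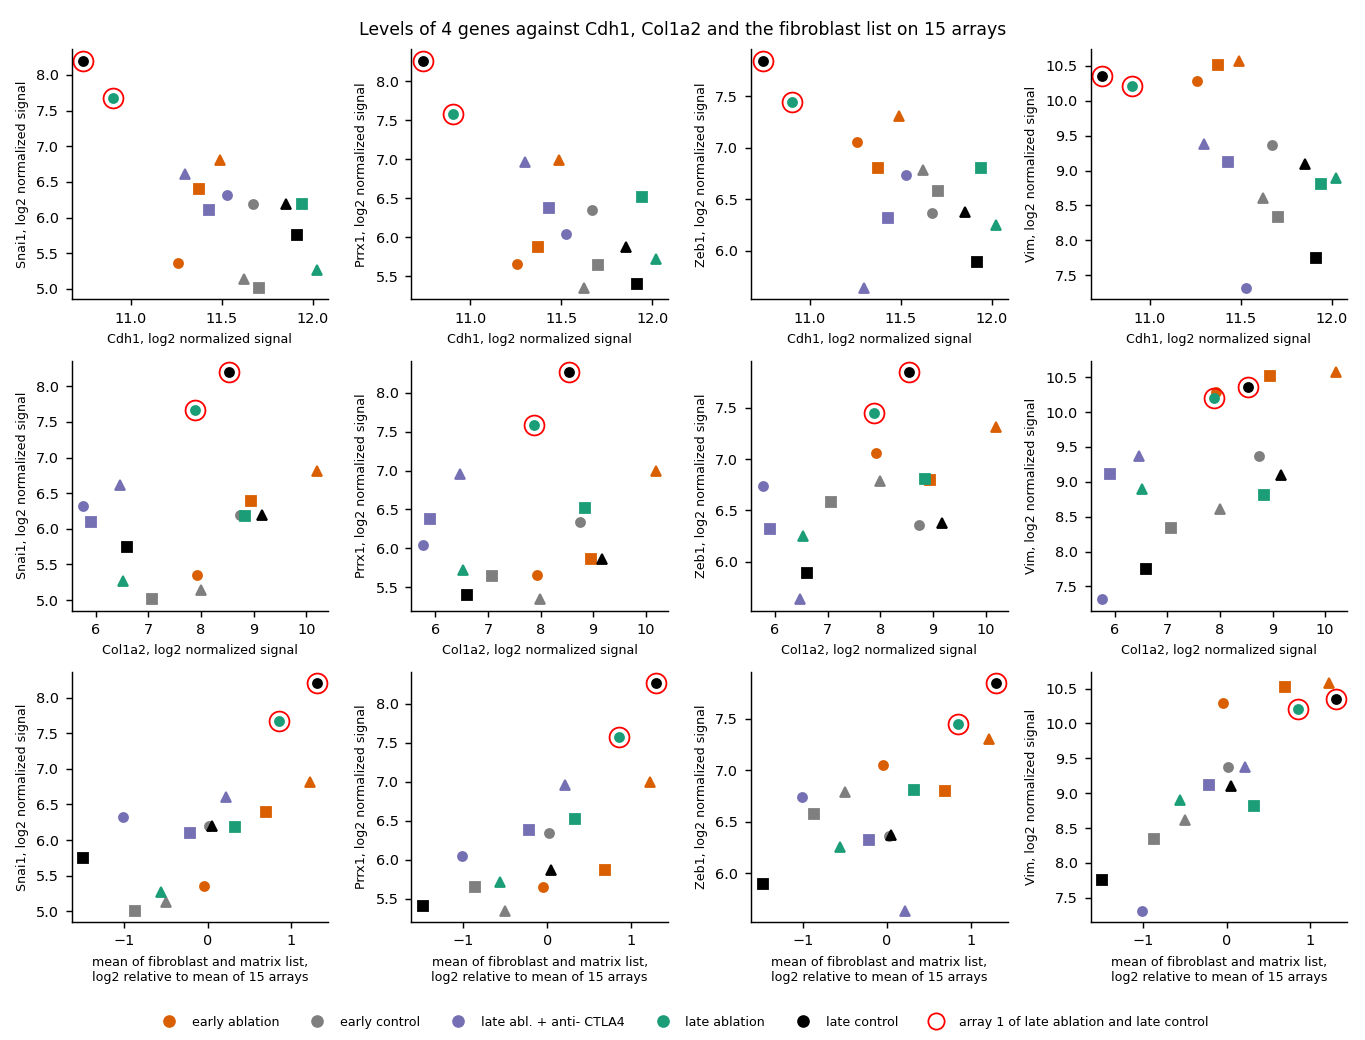
Level of Snai1, Prrx1, Zeb1 and Vim on the y axis against Cdh1, Col1a2 and the mean of the fibroblast and matrix list without Col1a2 on the x axis (log2), 1 point per array, coloured by group with the shape giving the array number. The 2 ringed arrays, array 1 of late ablation and of late control, have the lowest Cdh1 and the highest Snai1 and Prrx1, and Vim follows the fibroblast list with r = 0.887 across all groups.

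With both levels in 1 model, Cdh1 and Col1a2 were nearly unrelated to each other (r = -0.093, permutation p = 0.74), so each slope stayed near its value alone. With Col1a2 held, 4 of 8 members fell with Cdh1 (limma, adjusted over all features), where 732 of 15096 features fell (4.85%). They were Snai1 at -1.71 (adjusted p = 0.018), Prrx1 at -1.63 (adjusted p = 0.019), Vim at -1.53 (adjusted p = 0.022) and Zeb1 at -0.92 (adjusted p = 0.045). With Cdh1 held, no member passed for Col1a2 (121 of 15096 features, 0.802%), and Vim came nearest with a slope of 0.44 (adjusted p = 0.066 by limma). Within groups the same 4 genes fell with Cdh1, where 717 of 15097 features fell (4.75%). In both models no member passed without the 2 late arrays, where 0 and 2 features did, or with median scaling, where 200 and 451 features did. Vim kept its direction there, with slopes of -2.04 (SE 0.61) and -3.85 (SE 2.28) without the 2 arrays and of -1.27 and -1.56 with median scaling. Snai1, Zeb1 and Prrx1 changed sign within groups without the 2 arrays, with slopes of 1.31 (SE 2.06), 1.78 (SE 1.35) and 0.30 (SE 2.03). With Col1a2 held their slopes without the 2 arrays stayed negative, at -0.74, -0.42 and -0.70. Cdh1 and the fibroblast list mean were themselves related at r = -0.629 (permutation p = 0.012), so the 2 measures were not separate over these arrays.

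**Figure D4:**
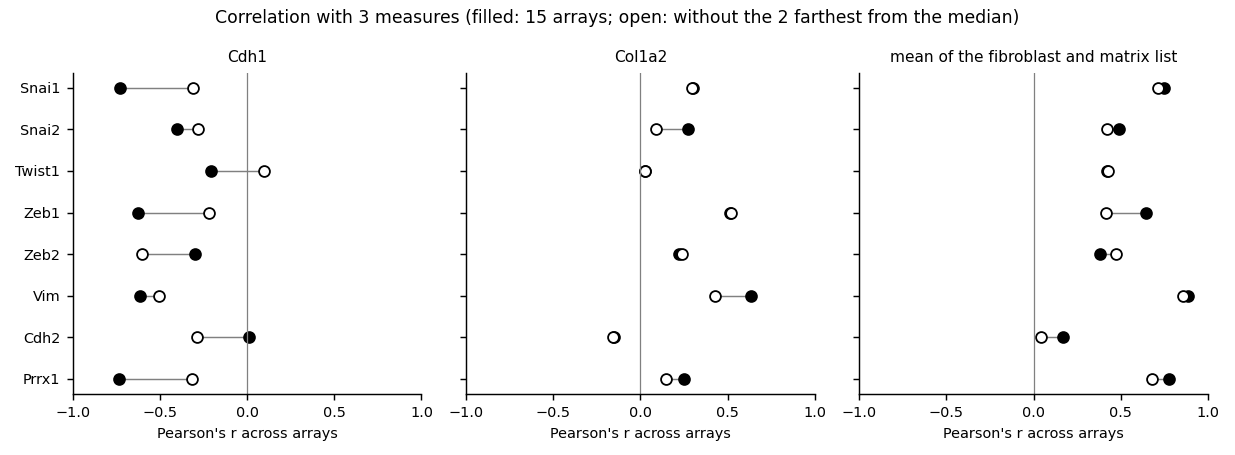
Pearson's r across arrays on the x axis, of each of 8 members down the y axis with Cdh1, Col1a2 and the fibroblast list mean, filled over 15 arrays and open without the 2 arrays farthest from the median of that measure. For Cdh1 the open points of Snai1, Prrx1 and Zeb1 lie nearer 0 than the filled ones, while for the fibroblast list Vim stays at 0.887 and 0.858.

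The other lists were related to fewer members. With the smooth muscle and pericyte mean Vim was the 1 member to pass, r = 0.752 (permutation p = 0.0016), where 116 features rose (0.768%). With the macrophage and leukocyte mean no member passed, where 200 features did (1.32%). Zeb2 had the highest r there, 0.644 (permutation p = 0.0091), with a slope of 0.72 (adjusted p = 0.18 by limma), and r = 0.402 without the 2 farthest arrays. With the endothelial mean no member passed either, where 22 features did (0.146%), and Zeb1 had the highest r, 0.672 (permutation p = 0.0066). In all, 16 relations with Cdh1 and Col1a2 and 48 with list means were computed, and the adjusted p-values are over all features in each.

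Among the wider lists, the genes that followed Cdh1 included epithelial ones. Of 17 epithelial genes 3 rose with Cdh1 and 0 fell, namely the desmosomal plakophilin Pkp3 at 0.90, the tight junction protein Tjp1 at 1.11 and the protease St14 at 0.88. Of 17 inducers and signalling genes 2 rose, the Notch ligand Jag1 at 1.51 and Notch1 at 1.03, and 2 fell, the TGF-beta receptor Tgfbr1 at -0.86 and the TGF-beta repressor Ski at -0.90. Of 18 effectors the protease Mmp2 fell at -1.62 and the integrin Itgb1 rose at 0.69. Of 13 fibroblast genes 3 fell and 0 rose, namely fibulin 2 (Fbln2) at -1.98, Dcn at -1.87 and Lum at -2.20. All 11 acinar genes and all 10 islet and neuronal genes measured had slopes below 0, with medians of -1.01 and -0.80, and 0 of either list passed. The part of these cells in the members' relation to Cdh1 was not tested. Among 14 partners and other mesenchymal factors 0 passed.

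The genes most like each member were those with the highest Pearson's r over the 15 arrays, among 11916 named genes that were no members. For both Snai1 and Prrx1 the first was Nptx2, a neuronal pentraxin, at r = 0.898 and 0.927. For Vim they were Itm2a at 0.948, Lyve1, a hyaluronan receptor of lymphatic endothelium and some macrophages, at 0.941 and Cpxm1 at 0.938. For Zeb1 they were Adgrl4, an adhesion receptor of endothelium, at 0.922, Fez2 at 0.919 and Nkd1, a Wnt inhibitor, at 0.903. For Zeb2 they were Slc7a3 at 0.815, the decoy receptor Il1r2 at 0.781 and Irak3 at 0.777, both of the interleukin 1 pathway. For Twist1 the first was Klhl34 at 0.890. For Snai2 and Cdh2, which were near background, they were Ybx1 at 0.789 and Olfr675 at 0.862. These are descriptions that share arrays, groups and the late pair that stands apart.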

How the data were processed

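Biotinylated cRNA from Trizol-extracted tumour RNA was read on Illumina MouseWG-6 v2 bead arrays, and GenomeStudio is named in the submitters' processing notes with no version. The authors deposited 2 non-normalized tables of signal intensity per probe, of 12 and 3 arrays, with a detection p-value beside each signal. Another deposited table, of processed values, holds linear intensities that a straight line turns into that array's non-normalized signal in each column, and it was used as an alternative. Its column medians were 16.5 to 28.2, and how slope and offset were chosen is not given in the sources used here.

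From the non-normalized intensities, background was corrected from the detection p-values (normexp, offset 16) and quantile normalization and log2 followed, in limma 3.58.1 and R 4.3.3. The median signal of an array was 95.2 to 142.1, and the number of arrays limits the precision. A probe had to be detected on at least 3 arrays, and the brightest detected probe of a symbol stood for the gene. Of the probes 34885 carry 1 symbol, 18 several and 10378 none, and probes without a single symbol stood as features of their own. Levels per array come from the 15-array normalization, and the first 4 comparisons from the 12 arrays of the first table, so their means differ slightly. Group means, or a level as covariate, were fitted with lmFit and eBayes (two-sided, Benjamini-Hochberg over all features, adjusted p under 0.05). Permutation p-values used 100000 resamples (NumPy), with arrays shuffled freely across the groups. An at-least fold raises undetected signals to the lowest detected signal of their array.

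Numbers of the late ablation and late control arrays were taken to pair them, since deviations of same-numbered arrays from their group means correlated at 0.587, 0.391 and 0.135. In none of the other comparisons were all 3 above 0.1. The labels do not say what the numbers mean. Late ablation array 2 and late control array 3 were each other's best match by rank correlation, at 0.963. The pairing of numbers 2 and 3 is therefore uncertain. The members and the lists were chosen with earlier results of these data known. Named were all members, up to 4 genes of a list past the threshold or otherwise the 2 with the smallest p, and up to 3 genes most like each member. Other scalings, filters and values, array weights, a block on the array number and leaving out each array were run. The pipeline was tested on simulated data.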

Additional observations from a re-analysis of the deposited data

Results flagged for a closer look

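A second Vim probe (ILMN_1232980), not used above, was detected on 2 of the 3 late ablation with anti-CTLA4 arrays, at 5.31 and 5.92 log2. On the third of these arrays it stood at 4.57. It was detected on none of the 12 arrays of the other groups, controls among them, where its level was 4.30 to 4.54. The flag picks less bright member probes detected on no control array and on at least 2 arrays of an ablated group. Absence from the controls was therefore fixed by the choice, and the share of all probes with this pattern was not computed. The main Vim probe stood at 9.12 and 9.37 on the same 2 arrays. The anti-CTLA4 arrays are a table of their own, so the treatment and the table cannot be told apart.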

How the results depend on the processing

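Group comparisons gave 0 members past the threshold by limma under every alternative run, leave-one-out included, except late control against early control with array weights, where 1 passed, Twist1. With the array number as a replicate block the count was 0 in the 5 group comparisons, also with the late groups alone, where the numbers were taken to pair the arrays, and 0 for Col1a2. The count of all features past the threshold was 0 in early ablation against early control and in late control against early control. It was 23 and 214 with array weights, and 0 to 11 and 0 to 2 without each array. With only the groups compared it was 1 in the early comparison. Median scaling moved the median of all features by 0.25 in the early comparison, by 0.15 between the controls and by -0.23 in the late minus early effect, so differences of that size are not set apart from scaling.

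The counts of members that followed a measure depended on the arrays and the scaling. Where few features pass, a member count of 0 says nothing of the members: for Cdh1 the features past the threshold numbered 1106, against 150 with median scaling, 0 with the mean over probes, 0 without the 2 farthest arrays and 1 with the replicate block, and 27 to 1987 without each array. Within groups they numbered 1469, against 451 with median scaling, 829 with the deposited values, 2 without both late arrays and 0 to 1762 without each array. With Col1a2 held they numbered 1522, against 200, 884, 0 and 141 to 2340. For Cdh1, 2 members passed, against 0 with median scaling, 0 with the mean over probes, 0 without the 2 farthest arrays, 0 with the replicate block, 1 with the epithelial list mean, 4 over the 12 arrays of the first table, 4 with group means as well, and 0 to 3 without each array (0 without late control 1 or late ablation 1). For Cdh1 within groups, 4 passed, against 0 with median scaling, 2 with the deposited values, 0 without both late arrays, and 0 to 4 without each array (0 without late control 1, late control 2 or late ablation 1). For Cdh1 with Col1a2 held, 4 passed, against 0 with median scaling, 2 with the deposited values, 0 without both late arrays, and 0 to 4 without each array (0 without late control 1 or late ablation 1). For Col1a2, 0 passed, against 3 with the fibroblast list mean in its place. For Col1a2 with Cdh1 held, 0 passed, against 1 with median scaling (Vim) and 0 to 1 without each array (1 without late ablation 3). For the fibroblast list mean, 3 passed, against 1 without both late arrays, 4 with median scaling, and 1 to 4 without each array (1 without late control 1). Features past the threshold for that list mean numbered 568, against 166, 717 and 231 to 740 in the same order. The within-group and joint alternatives, and those of the fibroblast list, were chosen after seeing the data. The causes were not tested.

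These differences and slopes changed sign, among them within-group slopes on Cdh1 of members that had passed. With the deposited values Snai2 was -0.15 in the early comparison, and with anti-CTLA4 Snai1 was 0.020 and Snai2 0.022. Without background correction Prrx1 was -0.038 in the late comparison. With array weights Zeb1 was -0.19 between the controls, and with anti-CTLA4 Snai1 was 0.086 and Prrx1 0.037. The slope of Cdh2 on Col1a2 was 0.061 with the fibroblast list and 0.077 with group means. The slope of Twist1 on Cdh1 was 0.54 with the mean over probes and 0.23 without the 2 farthest arrays. That of Cdh2 on Cdh1 was -0.017 with median scaling, -0.0062 without background correction, -0.052 with the epithelial list, -0.35 without the 2 farthest arrays and -0.26 with the replicate block. Within groups and without both late arrays, slopes on Cdh1 were 1.31 for Snai1, 0.83 for Snai2, 1.18 for Twist1, 1.78 for Zeb1, -0.63 for Cdh2 and 0.30 for Prrx1, and with the deposited values 0.019 for Twist1. In the joint model the Col1a2 slope was -0.0055 for Snai2 with the deposited values and -0.010 for Twist1 without both late arrays, and the Cdh1 slope was 0.23 for Twist1 without both late arrays and 0.14 for Cdh2 with the deposited values.

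Leaving out 1 array at a time also changed signs. In the early comparison Snai2 ran from -0.19 to 0.35 and Prrx1 from -0.019 to 0.68. In the late comparison Snai1 ran from -0.99 to 0.40, Twist1 from -0.27 to 0.11, Zeb1 from -0.27 to 0.70, Vim from -0.42 to 0.88 and Prrx1 from -0.46 to 0.97. Between the controls Zeb1 ran from -0.45 to 0.53, Vim from -0.35 to 0.95 and Prrx1 from -0.14 to 1.29. In the late minus early effect Zeb1 ran from -0.75 to 0.22 and Prrx1 from -0.85 to 0.58. With anti-CTLA4 Snai1 ran from -0.58 to 0.62, Snai2 from -0.36 to 0.074, Twist1 from -0.047 to 0.21 and Prrx1 from -0.59 to 0.34. Slopes on Col1a2 ran from -0.033 to 0.046 for Twist1 and from -0.060 to 0.031 for Cdh2, and with Cdh1 held from -0.011 to 0.092 for Snai2, from -0.060 to 0.035 for Twist1 and from -0.059 to 0.033 for Cdh2. The Cdh1 slope of Cdh2 ran from -0.090 to 0.12, within groups from -0.11 to 0.26 and with Col1a2 held from -0.095 to 0.11. Its fibroblast list slope ran from -0.020 to 0.11. Vim kept its direction in the early comparison, from 1.47 to 1.99 without each array. Snai2, Twist2 and Cdh2 had signal at or near background, and 3 arrays a group limit the rest.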
